A study of Mus musculus and Sus scrofa with 18 samples.

Results

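Transcripts of haemoglobin and of a red cell enzyme of haem synthesis were followed in the striatum of 9 mice, in 3 groups of 3. They are the 5 genes Hba-a1 (ENSMUSG00000069919), Hba-a2 (ENSMUSG00000069917), Hbb-bs (ENSMUSG00000052305), Hbb-bt (ENSMUSG00000073940) and Alas2 (ENSMUSG00000025270), out of 55357 mouse genes in the count table. They were picked by name because their level was lower in Huntington's disease (HD) mice and because they mark blood left in tissue, so their differences from WT mice are given as a description without a test. The comparison of treated with untreated HD mice was not used in that choice and was tested.

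WT mice had received AAV9-Ctrl gRNA, a control guide RNA, with no CasRx, an RNA-cutting CRISPR enzyme. HD mice were heterozygous 140Q-KI knock-in mice, in which exon 1 of Htt is replaced by the human exon with a long CAG repeat. Untreated HD mice had received AAV9-CasRx with the control gRNA, and treated HD mice AAV9-CasRx with AAV9-HTT gRNAs against HTT mRNA. The virus was injected into the striatum of both sides in adult mice, and CasRx was driven by the ubiquitous CAG promoter. Because both HD groups carry the knock-in allele and CasRx and WT mice carry neither, allele and CasRx cannot be told apart in any difference from WT. The study's methods for brain sections describe flushing the circulation with saline before the brain was taken out and part of it fixed. The sources used here do not say whether the striatum used for RNA came from brains flushed in this way.

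Adult haemoglobin is a tetramer of alpha and beta chains, each holding a haem group. Mouse alpha chains come from Hba-a1 and Hba-a2 on chromosome 11, and beta chains from Hbb-bs and Hbb-bt on chromosome 7. Alas2, on chromosome X, encodes the erythroid 5-aminolevulinate synthase, which carries out the first step of haem synthesis in red cell precursors. Red cells lose their nucleus but young ones still carry globin mRNA, and low levels of globin mRNA have also been described in neurons and glia. In a bulk sample, fewer cells of a type and less RNA per cell cannot be told apart.

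The 150 bases before each RefSeq gene start are shown because the 4 globin genes moved together in these mice. They are from RefSeq on GRCm38.p6, 5′ to 3′ on the strand of the gene. Capitals mark 4 short motifs on either strand. They are the CCAAT box, written ATTGG on the opposite strand, the CACCC box, written GGGTG there, the GATA box, written TATC there, and the TATAA box, written TTATA there.
Hba-a1 (chr11:32283522-32283671, plus strand): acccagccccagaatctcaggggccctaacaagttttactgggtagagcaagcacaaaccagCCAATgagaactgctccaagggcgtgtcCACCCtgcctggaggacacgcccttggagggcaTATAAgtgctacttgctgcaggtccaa
Hba-a2 (chr11:32296342-32296491, plus strand): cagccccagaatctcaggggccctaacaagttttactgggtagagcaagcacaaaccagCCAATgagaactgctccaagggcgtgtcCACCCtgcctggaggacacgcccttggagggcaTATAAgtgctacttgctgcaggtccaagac
Hbb-bs (chr7:103827929-103828078, minus strand): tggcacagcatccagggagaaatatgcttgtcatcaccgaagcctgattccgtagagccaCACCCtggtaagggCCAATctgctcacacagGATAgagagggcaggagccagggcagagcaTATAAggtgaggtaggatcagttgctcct
Hbb-bt (chr7:103813924-103814073, minus strand): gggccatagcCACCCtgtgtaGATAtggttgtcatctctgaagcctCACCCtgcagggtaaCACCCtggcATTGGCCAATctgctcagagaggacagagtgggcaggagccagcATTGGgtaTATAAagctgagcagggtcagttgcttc
Alas2 (chrX:150547267-150547416, plus strand): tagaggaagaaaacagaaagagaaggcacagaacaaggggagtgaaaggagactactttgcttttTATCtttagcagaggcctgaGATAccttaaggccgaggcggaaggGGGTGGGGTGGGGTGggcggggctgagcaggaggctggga
CACCC stood in 5 of 5 of these windows, against 37.4% of 32851 promoters in the same table. The CCAAT box stood in 4 of 5, against 24.5% of the promoters. The TATAA box stood in 4 of 5, against 14.2%. The window that held neither was that of Alas2. GATA, the core letters bound by the red cell factor GATA1, stood in 3 of 5, against 35.7%, and was in the windows of Hbb-bs, Hbb-bt and Alas2. Both alpha windows held 3 of the motifs once each, in the same order, and no GATA box. They aligned with 147 matching letters in 153 columns. The beta windows matched at 112 of 153 columns. The letters are a description and not evidence of binding.

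Each pair of globin genes is nearly identical in its coding sequence, which bears on how reads can be assigned between them. In GENCODE M21 transcripts the coding sequences of Hba-a1 and Hba-a2 matched at 428 of 429 positions and those of Hbb-bs and Hbb-bt at 443 of 444. The stretches around those single differences are shown with the differing base in capitals, counted from 1 at the A of the start codon.
Hba-a1 (positions 361 to 401 of the coding sequence): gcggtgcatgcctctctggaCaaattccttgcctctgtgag
Hba-a2 (positions 361 to 401 of the coding sequence): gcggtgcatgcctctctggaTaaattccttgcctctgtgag
Hbb-bs (positions 397 to 437 of the coding sequence): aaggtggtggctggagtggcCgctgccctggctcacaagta
Hbb-bt (positions 397 to 437 of the coding sequence): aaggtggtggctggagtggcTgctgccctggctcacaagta
The differences are C381T from Hba-a1 to Hba-a2 and C417T from Hbb-bs to Hbb-bt. After the stop codon, where reads of a 3′ library gather, the alpha copies were the same over all 74 bases that both annotated transcripts cover. The beta copies differed there, with 94 matches in 134 aligned columns. The split of counts between Hba-a1 and Hba-a2 is therefore uncertain, and less so that between Hbb-bs and Hbb-bt. Alpha and beta were far apart, at 60.6% identity between the coding sequences of Hba-a1 and Hbb-bs.

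The 9 libraries held 27184356 to 32102121 counts, and 19463 genes passed the filter on low counts, the 5 genes among them. Levels are CPM (counts scaled to a common library size, with TMM factors). The tissue label was borne out by its markers. The 9 genes listed for striatal projection neurons were present in every library. Their sum was lower in HD mice, at 5706 to 7520 CPM in WT, 1769 to 2121 CPM in untreated and 2891 to 2926 CPM in treated mice. Against WT 9 of 9 fell in untreated and 8 of 9 in treated mice, where 6.10% and 2.78% of all tested genes fell. These neuron markers, like the globins, were thus lower in HD than in WT mice. Between treated and untreated mice their median log2 fold change was 0.62, with none called, beside -0.98 over the 5 genes. Their part in the globin differences was not tested. The libraries were unlike in Y-linked counts. The 4 Y-linked genes listed held 3435 to 5005 counts in the 3 WT mice, 4683 in untreated mouse 1 and 0 in the other 5 HD mice. Apart from untreated mouse 1, a difference between HD and WT mice therefore cannot be told apart from one that goes with Y-linked counts.

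Alpha globin was lower in HD mice, and HD mice were unlike each other. Hba-a1 stood at 57.8, 33.9 and 56.7 CPM in WT mice 1, 2 and 3. It stood at 0.912, 22.2 and 12.9 CPM in the untreated mice and at 15.9, 0.857 and 1.16 CPM in the treated mice. Every HD mouse was below every WT mouse, while the 2 HD groups overlapped, each holding mice near 1 CPM and mice above 12 CPM. The mean of the WT mice was 49.5 ± 13.5 CPM, that of the untreated mice 12.01 ± 10.7 CPM and that of the treated mice 5.97 ± 8.60 CPM (SD, n = 3 each). Hba-a2 was high and low in the same mice, with 46.0, 27.9 and 45.6 CPM in WT mice. It had 0.807, 17.7 and 10.1 CPM in untreated mice and 13.8, 0.692 and 0.646 CPM in treated mice. Again no HD mouse reached the lowest WT mouse, and the HD groups overlapped.

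Beta globin followed alpha globin mouse by mouse. Hbb-bs stood at 60.3, 31.0 and 58.5 CPM in WT mice, 0.842, 19.2 and 13.9 CPM in untreated mice, and 14.9, 0.692 and 1.55 CPM in treated mice. Hbb-bt stood at 24.6, 13.4 and 25.7 CPM in WT mice, 0.386, 7.12 and 6.12 CPM in untreated mice, and 6.10, 0.297 and 0.452 CPM in treated mice. For both genes untreated mouse 1 and treated mice 2 and 3 were the lowest, every HD mouse was below every WT mouse, and the HD groups overlapped.

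Alas2 was a scarce transcript, with 3 to 55 counts in a library. It stood at 1.36, 0.881 and 1.83 CPM in WT mice, 0.140, 1.01 and 0.578 CPM in untreated mice, and 0.858, 0.231 and 0.0969 CPM in treated mice. Untreated mouse 2 exceeded WT mouse 2, so WT and untreated mice overlapped. All treated mice were below all WT mice, though treated mouse 1 lay just under WT mouse 2.

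**Figure D1:**
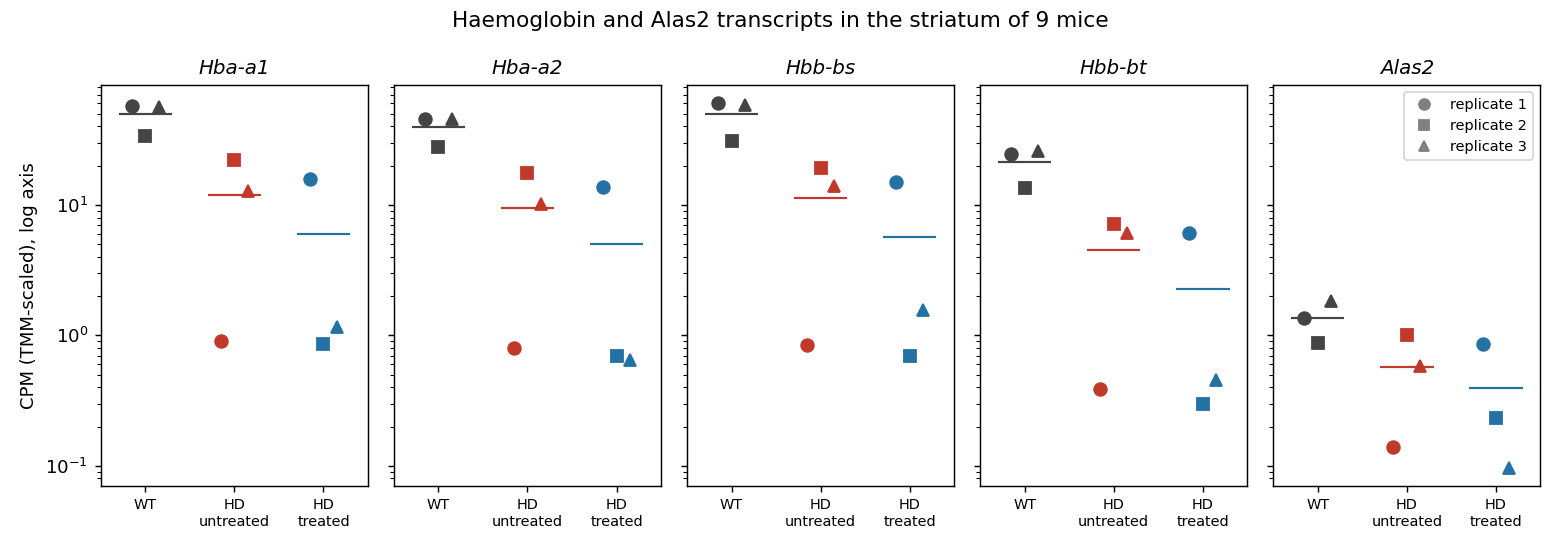
Level of each of the 5 genes in each mouse, in CPM on a log axis, with symbols for the replicate number and a line at the group mean. Untreated mouse 1 and treated mice 2 and 3 lie near or below 1 CPM for the globins except Hbb-bs and Hba-a1 in treated mouse 3 (1.55 and 1.16 CPM), while the WT mice lie between 13.4 and 60.3 CPM.

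Summed over the 5 genes, the WT mice had 190, 107 and 188 CPM. The HD mice fell into 2 ranges, with a wide gap between them. Untreated mice 2 and 3 and treated mouse 1 had 67.3, 43.6 and 51.5 CPM, and untreated mouse 1 and treated mice 2 and 3 had 3.09, 2.77 and 3.91 CPM. Both ranges held mice of both HD groups. The low libraries still had 88, 84 and 121 counts of the 5 genes, so the transcripts were detected in every mouse.

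Relative to WT, the fitted log2 fold change in untreated mice was -2.04 for Hba-a1 (SE 1.09), -2.06 for Hba-a2 (SE 1.12), -2.14 for Hbb-bs (SE 1.08), -2.22 for Hbb-bt (SE 1.05) and -1.23 for Alas2 (SE 0.747). In treated mice it was -3.04 (SE 1.14), -2.98 (SE 1.16), -3.12 (SE 1.13), -3.21 (SE 1.11) and -1.76 (SE 0.767) in the same order. All 5 genes were at least 2-fold lower in untreated mice, as 3.23% of all tested genes were, and in treated mice, as 2.13% were. The groups did not overlap for 4 of 5 genes in untreated mice and for 5 of 5 in treated mice, where 15.1% of tested genes were lower without overlap in either comparison. Nothing is read from these shares, because the genes were chosen on this contrast. Both comparisons share the same WT mice. The median log2 fold change over the 5 genes was -2.06 and -3.04, beside 0.02 and 0.00 over all tested genes.

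Single mice carried much of the size of these differences, in either direction. Without untreated mouse 1 the log2 fold change of untreated mice against WT was -1.497 for Hba-a1, -1.52 for Hba-a2, -1.60 for Hbb-bs, -1.69 for Hbb-bt and -0.78 for Alas2. Without untreated mouse 2 it was -2.85, -2.88, -2.77, -2.72 and -1.91 in the same order. Without treated mouse 1 that of treated mice was -5.61 for Hba-a1, -5.89 for Hba-a2, -5.47 for Hbb-bs, -5.81 for Hbb-bt and -3.02 for Alas2. Among mice with Y-linked counts, untreated mouse 1 was the only HD mouse and had 3.09 CPM summed over the 5 genes, against 107 to 190 CPM in the WT mice. No WT mouse lacked Y-linked counts, so the HD mice without them have no WT mouse to be set against.

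No difference between treated and untreated HD mice was detected in any of the 5 genes. The log2 fold change of treated against untreated mice was -1.001 for Hba-a1 (SE 1.10, 95% interval -3.46 to 1.46) and -0.91 for Hba-a2 (SE 1.12, -3.43 to 1.60). It was -0.98 for Hbb-bs (SE 1.08, -3.40 to 1.44), -0.98 for Hbb-bt (SE 1.07, -3.38 to 1.42) and -0.53 for Alas2 (SE 0.791, -2.30 to 1.24). In the quasi-likelihood test of edgeR the adjusted p was 0.995 for each gene. For all 5 genes the groups overlapped, while 8.83% of tested genes were lower in treated mice without overlap. None of the 5 was called, and none had an unadjusted P under 0.05, where 0% of 19463 genes were called at an adjusted p under 0.05 and 5.50% had an unadjusted P under 0.05. The exact two-sided permutation test on log2 CPM gave p = 0.6, 0.5, 0.6, 0.4 and 0.7 for the genes in that order, and the smallest p that 3 mice against 3 allow is 0.1. The intervals are wide and take in both a fall of more than 8-fold and a rise of more than 2-fold for each globin gene.

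The size of the estimate rested on which mice entered. Without treated mouse 1 it was -3.56 for Hba-a1, and without untreated mouse 2 it was -0.19. For Alas2 the same omissions gave -1.79 and 0.15, the latter with the opposite sign. Among the 5 HD mice without Y-linked counts, which leaves out untreated mouse 1, Hba-a1 was at -1.54 and Alas2 at -0.98, with an adjusted p of 1 each from edgeR. Adding the copies together gave -0.96 for Hba-a1 plus Hba-a2 (SE 1.12) and -0.98 for Hbb-bs plus Hbb-bt (SE 1.09), with an adjusted p of 0.995 each from edgeR, so the uncertain split between copies did not move this comparison.

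**Figure D2:**
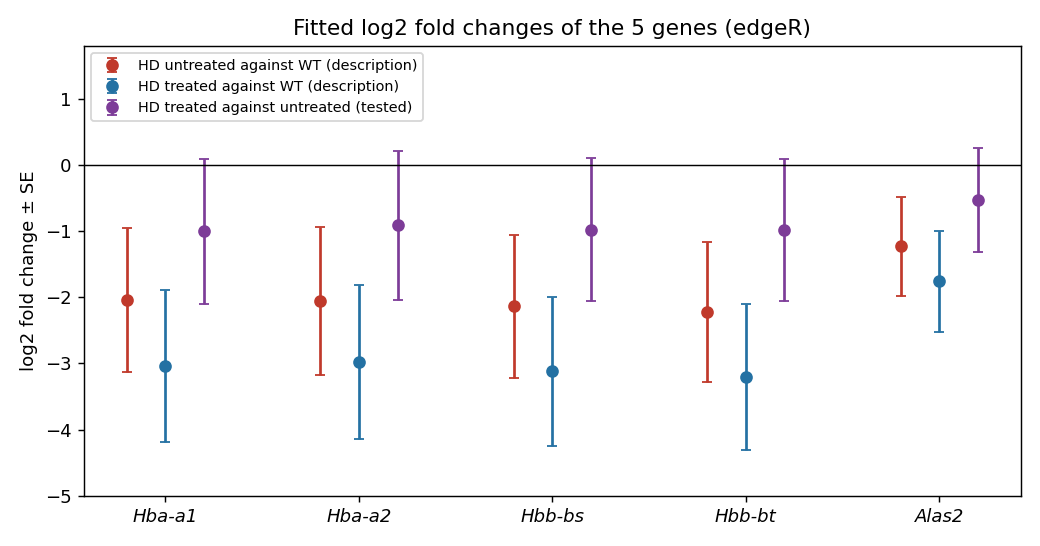
Fitted log2 fold changes of the 5 genes in the 3 comparisons, with bars of ± 1 SE (n = 3 mice per group). Treated against untreated mice lie between -1.001 and -0.53 with bars that cross 0, and the comparisons with WT, which share the WT mice, lie between -3.21 and -1.23.

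The spread within groups set these genes apart from most others. The within-group SD of log2 CPM was 1.92 for Hba-a1, 1.96 for Hba-a2, 1.93 for Hbb-bs, 1.85 for Hbb-bt and 1.05 for Alas2, beside a median of 0.20 over all tested genes. Hba-a2 ranked 72 and Hbb-bt 92 of 19463 genes by this SD, with Hbb-bs and Hba-a1 between them at 77 and 79, and Alas2 ranked 585. The spread lay in the HD mice. For Hba-a1 the SD of WT mice was 0.44, that of untreated mice 2.41 and that of treated mice 2.26, and for Alas2 these were 0.50, 1.21 and 1.27. From the lowest to the highest mouse the CPM rose 67.5-fold for Hba-a1, 71.2-fold for Hba-a2, 87.1-fold for Hbb-bs and 86.6-fold for Hbb-bt.

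Deviations from the group mean, which do not use the differences by which the genes were chosen, ran together. Over the 9 libraries Pearson's r of these deviations was at least 0.9786 for every pair of globin genes, alpha with beta included. With Alas2 it was 0.90 to 0.95. These are descriptions over 9 points that share libraries and are set mainly by the 6 HD mice, and near-identical copies share reads.

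The make-up of the globin counts varied far less than their total. Shares are of 3′ counts, which are not per length, with 95% Wilson intervals that cover counting error only. Hba-a1 held 55.7%, 54.8% and 55.4% of the alpha counts in the WT mice, and 53.1% to 64.3% over all mice. The highest share, in treated mouse 3, came from 56 counts with an interval of 51.2% to 75.5%. Hbb-bs held 71.0%, 69.8% and 69.5% of the beta counts in WT mice and 68.6% to 77.4% over all mice. Alpha made up 47.5% to 61.0% of the globin counts, the lowest in treated mouse 3 (interval 38.7% to 56.4%) and the highest in treated mouse 2 (interval 49.9% to 71.2%). Among the deeper libraries the alpha share still ranged from 53.4% in untreated mouse 3 (interval 50.7% to 56.2%) to 60.3% in untreated mouse 2 (interval 58.1% to 62.4%), so these 2 mice of 1 group differed by more than counting error. WT mouse 2, at 58.2% (interval 56.4% to 60.0%), likewise lay above WT mouse 3, at 54.9% (interval 53.5% to 56.2%).

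Alas2 did not keep step with the globins in level. It made up 0.716%, 0.822% and 0.971% of the counts of the 5 genes in WT mice. In untreated mice it made up 4.55%, 1.498% and 1.33%, and in treated mice 1.67%, 8.33% and 2.48%. Every HD mouse had a higher share than every WT mouse, though several intervals met. That of WT mouse 3 was 0.747% to 1.26%, that of untreated mouse 3 was 0.830% to 2.11%, and that of treated mouse 2, from 7 counts of Alas2, was 4.09% to 16.2%. The rise in share goes with the smaller fall of Alas2, and both are parts of the same contrast by which the genes were chosen.

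**Figure D3:**
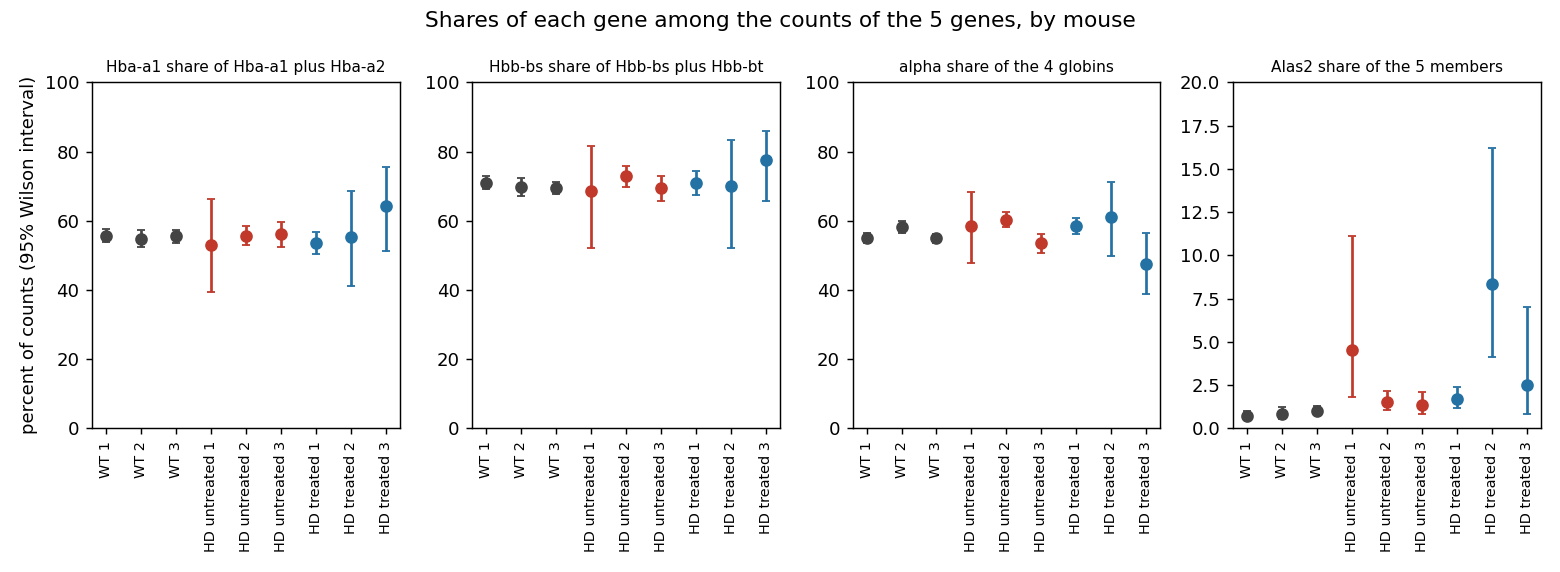
Shares of counts in each mouse with 95% Wilson intervals, for Hba-a1 among alpha counts, Hbb-bs among beta counts, alpha among globin counts (axes 0 to 100%) and Alas2 among the 5 genes (axis 0 to 20%). The first 3 shares stay within 47.5% to 77.4%, and the Alas2 share is lowest in WT mice (0.716% to 0.971%) and highest in treated mouse 2 (8.33%).

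None of the other globin genes was called. The embryonic genes Hba-x, Hbb-bh1 and Hbb-bh2 were at 0 counts in all 9 libraries. Of 9 listed genes 4 were tested. Cygb, the cytoglobin gene, stood at 47.9 to 49.1 CPM in WT, 43.7 to 48.8 CPM in untreated and 43.7 to 49.3 CPM in treated mice, so its groups overlapped. Ngb, the neuroglobin gene, stood at 1.16 to 4.52 CPM in WT, 1.19 to 3.59 CPM in untreated and 1.58 to 2.02 CPM in treated mice, also with overlap. The lowest adjusted p of the 4 genes was 0.497 in untreated and 0.604 in treated mice against WT (edgeR).

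The 11 genes taken here to define red cells and their precursors were at or near 0 throughout. The name red blood cell transcripts therefore rests here on the globins and Alas2. Ank1 and Tmcc2, also listed as red cell markers, were not among the 11. Over the 9 libraries they stood at 54.0 to 93.9 CPM and 173 to 209 CPM, and neither was called in any comparison. Rhag, which encodes a surface protein of red cells, had 0 counts in every library. Slc4a1, the band 3 anion exchanger, and Gata1, the erythroid transcription factor, had at most 2 counts, and Klf1, an erythroid transcription factor, had 3 to 8. The 11 defining genes together held 8, 13 and 16 counts in the WT mice, 17, 5 and 19 counts in the untreated mice, and 11, 4 and 8 counts in the treated mice. Klf1 alone held 48 counts over the 9 libraries. Sums this small cannot show whether these genes ran with the globins. Hemgn, an erythroid nuclear protein gene named after its values were seen, had 2, 2 and 4 counts in the WT mice and 0 counts in all 6 HD mice, where a count of 0 allows up to 3.

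Of 33 red cell genes listed beside the 5, 32 were in the count table and 17 were tested, most of them also used by other cells. In untreated mice against WT 5 fell and 0 rose, where 6.10% of all tested genes fell and 4.58% rose. Add2, which encodes a subunit of the membrane skeleton protein adducin, fell by 0.40 on the log2 scale (SE 0.0743, adjusted p = 0.0135). Sptb, the beta spectrin gene, fell by 0.52 (SE 0.104, adjusted p = 0.0166), and Epor, the erythropoietin receptor, fell by 0.58 (SE 0.121, adjusted p = 0.0198). The others were Mkrn1, a ubiquitin ligase gene, and Epb41, which encodes protein 4.1 of the membrane skeleton, and these were named after their values were seen. Add2, Sptb and Mkrn1 were also the 3 that fell in treated mice against WT, where 2.78% of tested genes fell. None of the 17 was called between treated and untreated mice. The 5 calls were all under 2-fold, and the count was 0 with the share of Y-linked counts in the model and 0 in a fit of only the 2 groups. Add2 stood at 354 to 403 CPM in WT and 273 to 299 CPM in untreated mice, above the sum of the 5 genes in every mouse. The list's median was -0.03 in untreated mice against WT, beside 0.02 over all tested genes.

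The summed level of the other haem synthesis genes overlapped between WT and both HD groups. All 13 listed were tested, and their sum was 406 to 431 CPM in WT, 412 to 419 CPM in untreated and 413 to 436 CPM in treated mice. Alas1, the form of the first enzyme used outside red cells, stood at 46.4 to 55.8 CPM in WT, 44.8 to 46.9 CPM in untreated and 44.1 to 46.6 CPM in treated mice. Both HD groups overlapped WT, and the log2 fold change in untreated mice was -0.12 (SE 0.0819, adjusted p = 0.363).

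Of the genes for the clearance of haem and haemoglobin and for iron, 17 were tested. Cd163, the scavenger receptor for haemoglobin bound to haptoglobin on macrophages, was the only one called. That is 1 of 17, in untreated mice against WT, where 6.10% of all tested genes fell, so nothing is read from this count. Cd163 stood at 4.65, 4.77 and 6.22 CPM in WT, 2.77, 2.79 and 3.13 CPM in untreated and 4.23, 5.14 and 5.14 CPM in treated mice. It fell by 0.85 on the log2 scale in untreated mice against WT (SE 0.178, adjusted p = 0.0201). No untreated mouse reached the lowest WT mouse, where 15.1% of tested genes were lower without overlap. Treated mice were at -0.11 against WT (SE 0.175, adjusted p = 0.765) and at 0.74 against untreated mice (SE 0.178, adjusted p = 0.736, unadjusted P = 0.00216). Of all tested genes 5.50% had an unadjusted P under 0.05 between treated and untreated mice. The treated mice were all above the untreated mice, which is not the order of the globins. Hmox1, the haem-degrading oxygenase, stood at 3.59 to 5.65 CPM in WT, 4.46 to 8.26 CPM in untreated and 5.55 to 8.57 CPM in treated mice and was not called.

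Platelet and neutrophil genes gave no calls, and the endothelial genes that were called rose. Of the platelet genes 4 of 11 were tested and none was called, and their sum was 5.58 to 6.06 CPM in WT, 5.71 to 8.56 CPM in untreated and 5.57 to 7.54 CPM in treated mice. Of 13 neutrophil genes 2 were tested and none was called. The sum over the 13 was 8.97 to 25.7 CPM in WT, 11.8 to 31.4 CPM in untreated and 14.2 to 20.2 CPM in treated mice. It came mostly from the 2 tested genes, Csf3r and Lcn2. Csf3r held 888 of 923 counts in untreated mouse 3, and Lcn2 held 474 of 701 in WT mouse 2. The other listed genes were under the filter, with at most 8 counts in a library for S100a9 and 6 for Ltf. The sum therefore does not show their level. Of 12 endothelial genes tested, 3 rose in untreated mice against WT, where 4.58% of all tested genes rose. In treated mice against WT 2 rose, where 0.904% of all tested genes rose. Cldn5, the claudin of the tight junctions of brain vessels, stood at 17.0 to 22.4 CPM in WT and 31.1 to 37.2 CPM in untreated mice, a rise of 0.79 on the log2 scale (SE 0.128, adjusted p = 0.00708). In treated mice it stood at 34.3 to 40.3 CPM, a rise of 0.94 (SE 0.128, adjusted p = 0.00563). The others called were Tek, an angiopoietin receptor, and, in untreated mice alone, Abcb1a, a transporter of the blood-brain barrier, which was at 0.43 in treated mice (adjusted p = 0.101). Other endothelial genes went the other way without a call. Ly6c1 was at -0.31 in untreated and -0.50 in treated mice against WT, and Esam at -0.19 and -0.13. The median of the endothelial list was 0.34 and 0.38. Of 10 pericyte and smooth muscle genes only Rgs5 was called, and it rose in untreated mice against WT (0.44, SE 0.105, adjusted p = 0.0307). Tagln was at -0.77 in untreated and -0.56 in treated mice without a call, and the median of that list was 0.06 and -0.01. None of the endothelial or pericyte genes was called between treated and untreated mice.

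Choroid plexus markers varied widely between mice. The 12 listed summed to 68.7, 3939 and 1290 CPM in WT, 197, 53.6 and 40.4 CPM in untreated and 259, 43.7 and 1360 CPM in treated mice. In the same order of mice the 5 genes summed to 190, 107 and 188 CPM in WT mice. They summed to 3.09, 67.3 and 43.6 CPM in untreated and 51.5, 2.77 and 3.91 CPM in treated mice. Clic6, a chloride channel gene, was the only 1 of the 12 called, in untreated mice against WT, where 6.10% of all tested genes fell. Nothing is read from this count. Clic6 stood at 14.3, 91.4 and 46.9 CPM in WT and 11.02, 8.497 and 7.41 CPM in untreated mice. Between them it fell by 2.503 on the log2 scale (SE 0.643, adjusted p = 0.0387). Ttr was at -4.42 there without a call. The list's median was -3.46 in untreated and -1.35 in treated mice against WT, beside 0.02 and 0.00 over all tested genes. None of 8 genes of meninges and fibroblasts was called, and their sum was 36.3 to 172 CPM in WT, 33.1 to 52.6 CPM in untreated and 44.5 to 109 CPM in treated mice. The part of these cell types in the globin differences was not tested.

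**Figure D4:**
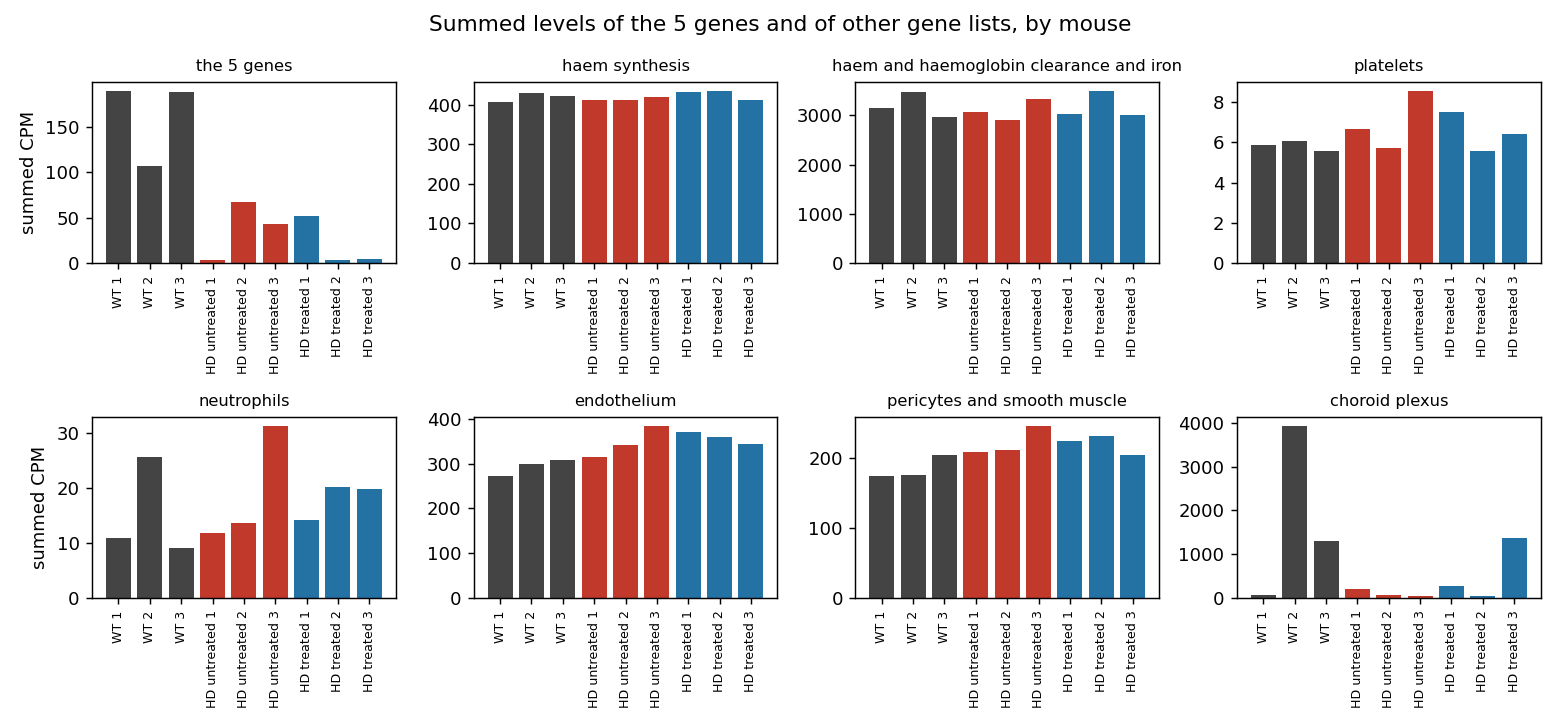
Summed CPM of the 5 genes and of 7 other gene lists in each mouse, as bars from 0 with a separate axis for each list. The 5 genes range from 2.77 to 190 CPM, the endothelial genes from 272 to 385 CPM, and the choroid plexus genes from 40.4 to 3939 CPM with their peak in WT mouse 2.

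Genes beside the globin and Alas2 loci were called about as often as other genes. The 3 nearest tested protein-coding genes on each side of each locus were read, 18 in all, from the order of genes in the reference. Nprl3, which lies next to the alpha genes and whose introns hold their enhancers, was at -0.09 (SE 0.0898, adjusted p = 0.565) in untreated and -0.06 (SE 0.0897, adjusted p = 0.751) in treated mice against WT. Only Olfr78, beside the beta genes, which rose by 1.28 (SE 0.350, adjusted p = 0.0472), and Tro, beside Alas2, which fell by 0.43 (SE 0.105, adjusted p = 0.034), were called in untreated mice against WT, which is 1 of 18 in each direction, where 4.58% of all tested genes rose and 6.10% fell. None was called in treated mice against WT or against untreated mice.

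The genes with the pattern most like the mean of the 5 were sought among 16048 genes with a mean of at least 1 CPM, over the 9 libraries. By level, Nlrx1 (r = 0.96), Dcaf7 (r = 0.95), Aox3 and Tomm22 (r = 0.93 each) came first, followed by Fbxl14, Tefm, Sgcz, Rgs11, Mus81 and Hrk, the last at r = 0.89. Their changes were small. Nlrx1 ranged over 0.62 and Aox3 over 1.98 on the log2 scale, against 5.97 for Hba-a1. By deviation from the group mean the leading genes were Gxylt2 (r = 0.99), Ttc21b (r = 0.97) and Usp22 (r = 0.96), then Gm45124, Spaca6, Zic5, Dnajc4, Igkv5-43, Trim68 and Dcaf7 at r = 0.92. The lists shared 1 of 10 genes, Dcaf7, which ranged from 168 to 209 CPM. Igkv5-43, an immunoglobulin segment, was the only one of these with a range as wide as the globins, at 0 CPM in all WT mice, 0, 1.08 and 2.79 CPM in untreated and 9.90, 0.857 and 1.00 CPM in treated mice. These correlations are a description over 9 points that share groups and libraries.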

How the data were processed

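RNA from the striatum of 9 mice was primed with oligo-dT to give 3′ mRNA libraries. The authors deposited raw counts, whole numbers of reads per Ensembl gene without normalization. Among the listed genes counts of 0 and 2 occurred but single counts did not, for which the sources used here give no reason. A count of 0 and the smallest sums are to be read with that limit. The study's methods name STAR, while the submitters' processing notes list Trimmomatic 0.39, FastQC 0.11.9, HISAT2 2.2.1 and featureCounts 2.0.1. The mouse build, the handling of reads that match several genes and any collapsing of molecular identifiers are not given in the sources used here. Each library is labelled as a separate sample of its group, and the study describes animals, so n counts mice. Symbols came from the reference tables (94.1% of IDs, 99.8% of counts). The pig libraries were not analysed here, and single-gene results for some listed genes are not reported here.

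Counts were analysed with edgeR 4.0.16 in R 4.3.3: filterByExpr, TMM scaling, and 1 quasi-likelihood fit of all 9 libraries with 6 residual degrees of freedom. Adjusted p-values are Benjamini-Hochberg over 19463 genes, and a gene was called at an adjusted p under 0.05. Log2 CPM used a prior count of 2. SE was the absolute log2 fold change over the root of the F value. The steps were tested on simulated data. Totals of 27184356 to 32102121 counts limit precision to counting error where a gene holds few counts.

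The members and lists were chosen with earlier results of these data known. Named in each list were the 3 genes with the smallest P or the only ones called, and the 10 genes most like the members by each measure. Alternatives were other scaling, DESeq2 1.42.0, other filters and prior counts, fits of 2 groups, a replicate block, a Y-linked covariate, summed copies, other thresholds and each mouse left out. Sequences were handled in Python 3.11.15 with Biopython 1.88, and figures drawn with matplotlib 3.10.9.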

Additional observations from a re-analysis of the deposited data

How the results depend on the processing

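Between treated and untreated mice none of the 5 genes was called wherever an alternative or a fit without a mouse gave an adjusted p (0.881 to 1, edgeR and DESeq2). DESeq2 gave no adjusted p for Hbb-bt and Alas2. None of the other red cell genes was called in that comparison. Leaving out each mouse in turn moved the log2 fold change of treated against untreated mice from -3.56 to -0.19 for Hba-a1, -3.82 to -0.10 for Hba-a2, -3.33 to -0.35 for Hbb-bs, -3.58 to -0.46 for Hbb-bt and -1.79 to 0.15 for Alas2, where the sign turned without untreated mouse 2. Untreated against WT it ran from -2.85 to -1.497, -2.88 to -1.52, -2.77 to -1.60, -2.72 to -1.69 and -1.91 to -0.78 for the same genes, lowest without untreated mouse 2 and highest without untreated mouse 1. Treated against WT it ran from -5.61 to -2.52, -5.89 to -2.46, -5.47 to -2.59, -5.81 to -2.68 and -3.02 to -1.30 for the same genes, lowest without treated mouse 1. With the share of Y-linked counts as a covariate, untreated mice were at -5.04, -4.92, -5.14, -5.004 and -2.69 against WT and treated mice at -6.51, -6.30, -6.58, -6.44 and -3.58. That fit rests largely on untreated mouse 1, the only HD mouse with such counts. The direction was the same in every one of these comparisons with WT.

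The replicate numbers mark different animals, and same-numbered treated and untreated mice deviated together with r = 0.19, -0.003 and 0.24, so they were not taken as pairs. A replicate block gave -1.60 for Hba-a1, -1.57 for Hba-a2, -1.58 for Hbb-bs, -1.52 for Hbb-bt and -0.62 for Alas2 between treated and untreated mice, with none called, and 2 of 3 treated mice correlated best with their own number.

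The other red cell genes called in untreated mice against WT numbered 5 here, 6 with DESeq2, 3 without TMM factors, without a filter or with the replicate block, and 0 in a fit of 2 groups, with the Y-linked covariate or at an unadjusted P with a 2-fold minimum. They ranged from 2 to 5 with each mouse left out. In treated mice against WT they numbered 3 here, 1 without TMM factors or a filter, 0 with the covariate or the 2-fold minimum, and 0 to 3 with each mouse left out. Of the 10 genes most like the members, 1 was shared with deviations, 3 with Spearman's correlation, and 3 to 6 with each mouse left out. The causes were not tested. At 10 counts in every library Hbb-bt and Alas2 were dropped and had no value. With 84 to 121 counts of the 5 genes in 3 HD libraries, depth limits the shares there.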
